A study of Homo sapiens with 3 samples.

Results

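The Notch pathway was described here by its receptors, ligands and targets in stratified cultures of SV40-immortalized human corneal epithelial (iHCE) cells. A list of 10 genes was searched for in the deposited table, and every probe set annotated to 1 of these genes alone was kept. This gave 19 probe sets of 8 genes, out of 11963 genes measured in all: *NOTCH1*, *NOTCH2*, *NOTCH3*, *NOTCH4*, *JAG1*, *JAG2*, *HES1* and *HEY1*. *NUMB*, which encodes an endocytic inhibitor of Notch, was represented only by probe sets shared with another gene, and the ligand gene *DLL1* had no probe set in the annotation used. Neither was analysed here.

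Notch is a signal passed between touching cells. A ligand of the Jagged or Delta type on one cell binds a Notch receptor on its neighbour, proteases then release the intracellular part of the receptor, and this fragment joins the DNA-binding protein RBPJ and Mastermind-like coactivators to switch on genes of the HES and HEY families, which encode transcriptional repressors. In mice the pathway is known to steer stratified epithelia toward differentiation and to keep the corneal epithelium from turning skin-like during wound repair.

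The iHCE line carries the viral large T antigen and was used at passages 22 to 23. The cells were grown in medium with serum, insulin, cholera toxin and EGF on collagen-coated filters, for 7 days submerged and then, with ascorbic acid added, at an air-liquid interface. RNA from 3 independent culture batches, called cultures 1, 2 and 3, with electrical resistances of 489, 439 and 468 Ω · cm2, was hybridized to HG-U133A arrays, 1 array per batch. All cultures had the same treatment and the tissue arrays of the study were not analysed here, so there is 1 group, and each level is set against background and not against another condition.

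Values are log2 expression levels by RMA, which corrects for background, equalises the arrays and combines the probes of a probe set into 1 value. Background was set per array by a panel of 60 genes that belong to other tissues, and the 95th percentile of their levels was the threshold. A probe set above the threshold on all 3 arrays was called above background. These thresholds were 7.12, 7.07 and 7.10 in cultures 1, 2 and 3. Probe sets bind with different strength, so a level places a probe set against background but does not rank genes by amount. The precision of a mean is limited by the number of arrays. Standard errors (SE) and p-values below take the threshold as fixed. They come from limma, which moderates the spread between arrays by that of all probe sets or genes. The uncertainty of the threshold is not included.

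The labelled cell type was checked first. Of 8 measured corneal markers none was above background, with a level of 5.26 ± 0.16 (SD, n = 3) for the corneal keratin gene *KRT12* and 6.83 ± 0.28 for the eye regulator gene *PAX6*, while 6 of 6 simple epithelial markers were, such as *KRT18* (12.58 ± 0.20) and *CDH1* (11.02 ± 0.08). Markers of immune cells (0 of 5), melanocytes (0 of 5) and endothelium (0 of 9) were not above background. Of 8 keratocyte and stromal markers 1 was above it, *ALDH1A3* (11.09 ± 0.15), with *KERA* and *LUM* at 3.79 ± 0.11 and 3.64 ± 0.03. On some of the arrays only, 2 stromal markers, 1 endothelial and 1 melanocyte marker exceeded the threshold. Cultures 2 and 3 were closest to each other (Pearson's r = 0.994 across probe sets, against 0.988 and 0.987 with culture 1). The poly-A control transcripts were lowest on the array of culture 1 at 24 of 24 probe sets. Several of these probe sets read the same control transcript.

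Of the 8 measured Notch genes, 5 were above background at their brightest probe set (62.5%), where 44.8% of all genes were. These were the receptor genes *NOTCH2* and *NOTCH3*, the ligand genes *JAG1* and *JAG2*, and the target gene *HES1*. *NOTCH1*, *NOTCH4* and *HEY1* were not. The 8 genes had 19 probe sets, against 19071 for all 11963 genes. More probe sets give a brightest value more chances to pass, so these shares of genes are not on equal terms. Only 3 of the 8 also passed limma's one-sided test of a mean above the threshold, which 43.9% of all genes passed. They were *NOTCH2*, *JAG2* and *HES1* (limma, adjusted p over all genes of 1.0e-07, 1.8e-05 and 2.5e-06). *NOTCH3* and *JAG1* exceeded the threshold by 0.11 and 0.10 log2 units and did not pass the test (limma, adjusted p = 0.27 for both). Counted by probe sets, 7 of 19 were above background (36.8%), a share close to the 36.3% of all probe sets that name 1 gene, so this count is no result about the list. Limma's test was passed by 5 of 19 probe sets, against 35.2% of all. The median level of the 8 genes was 7.20 and that of all genes 6.98.

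**Figure D1:**
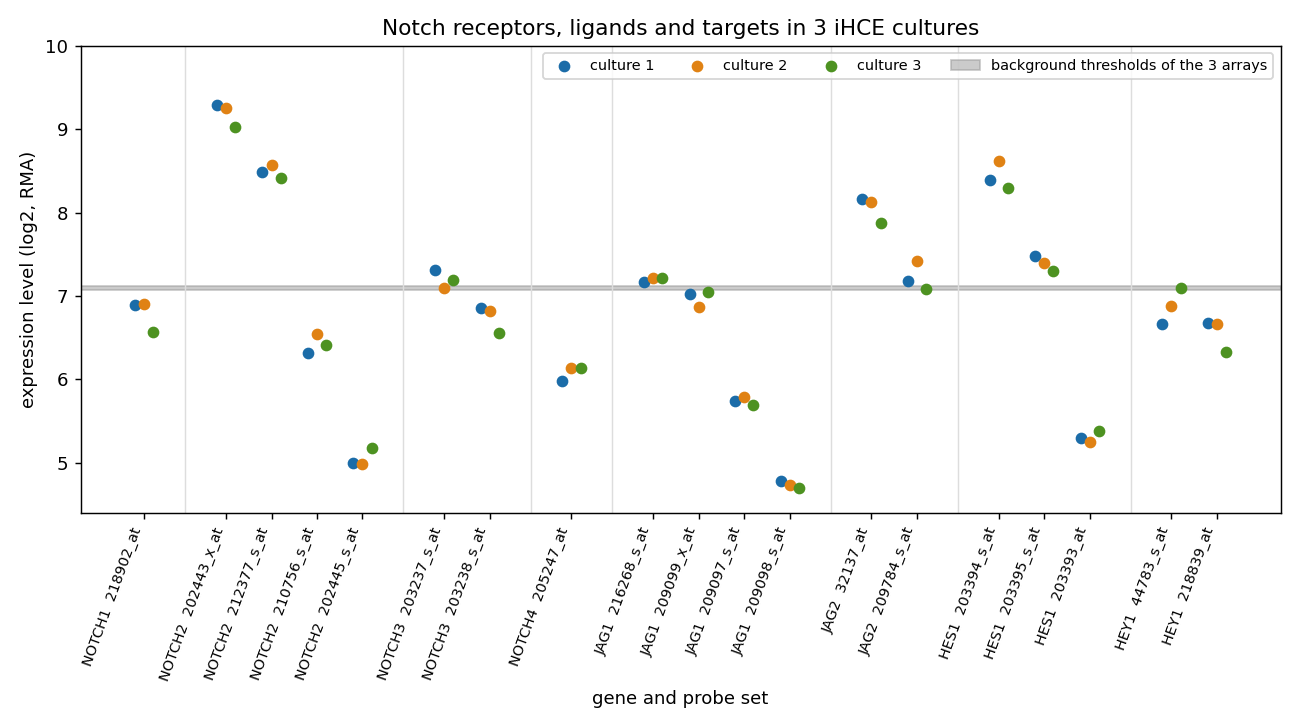
Log2 expression level (vertical axis) of the 19 probe sets of the 8 Notch genes, grouped by gene, with a point for each of the 3 iHCE cultures and a grey band for the background thresholds of the arrays (7.07 to 7.12). *NOTCH2*, *JAG2* and *HES1* have probe sets well over the band, *JAG1* (216268_s_at) lies just over it in each culture, and *NOTCH2*, *JAG1* and *HES1* also have probe sets far below it.

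Among the receptors, *NOTCH2* was the only one well above background. Its brightest probe set, 202443_x_at, read 9.29, 9.26 and 9.02 in cultures 1, 2 and 3, or 9.19 ± 0.15 (SD, n = 3). That is 2.09 ± 0.09 (SE) log2 units over the thresholds (limma, adjusted p over all probe sets = 4.1e-07). A second probe set, 212377_s_at, read 8.49, 8.57 and 8.41 and stood 1.39 ± 0.08 (SE) log2 units over the thresholds (limma, adjusted p = 2.5e-06). The cultures lay close together at both, with ranges of 0.27 and 0.16.

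The other *NOTCH2* probe sets were not above background. 210756_s_at read 6.31, 6.54 and 6.41, below the threshold on every array, and 202445_s_at read 5.00, 4.99 and 5.18. The brightest and the dimmest *NOTCH2* probe sets were 4.13 ± 0.25 log2 units apart (SD, n = 3), and their order was the same on each array. A distance as wide was seen in 9.72% of the 4310 genes with several probe sets, whose median distance was 1.60. The suffix _x_at marks probes that may bind unrelated transcripts and _s_at probes shared by several transcripts. No unmarked *NOTCH2* probe set was in the table, and the human genome also holds partial copies of the gene (the *NOTCH2NL* genes). Whether these add to the signal was not tested.

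*NOTCH3*, whose product serves in vascular smooth muscle and in epithelia, read at the edge of background. Probe set 203237_s_at gave 7.32, 7.10 and 7.19 (7.20 ± 0.11, SD, n = 3), above all 3 thresholds by 0.11 log2 units on average. In culture 2 it cleared the threshold by the least. Its difference from the threshold did not pass limma's test (adjusted p = 0.32). Probe set 203238_s_at gave 6.86, 6.82 and 6.56 and was above no threshold.

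*NOTCH1*, the receptor best known for driving differentiation of keratinocytes in mice, was measured by a single probe set, 218902_at. It read 6.89, 6.91 and 6.57 (6.79 ± 0.19, SD, n = 3), lower than the threshold in every culture, with a mean difference of -0.31 log2 units. Cultures 1 and 2 were alike and culture 3 was the lowest. A level this close to the threshold does not show that the transcript was absent, since the threshold is set so that most genes of other tissues lie under it.

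*NOTCH4* is a receptor gene of endothelium. Its only probe set, 205247_at, read 5.98, 6.13 and 6.14 (6.09 ± 0.09, SD, n = 3), lower than every threshold, with a mean difference of -1.01 log2 units. Of the endothelial markers, *PECAM1*, *CDH5* and *VWF* had levels of 5.95 ± 0.13, 6.79 ± 0.18 and 4.92 ± 0.11, and *TEK* exceeded the threshold on 2 of the 3 arrays.

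Both measured ligands belong to the Jagged group. *JAG2* was above background at its unmarked probe set 32137_at, with 8.16, 8.13 and 7.87 in cultures 1, 2 and 3, or 8.06 ± 0.16 (SD, n = 3). This was 0.96 ± 0.09 (SE) log2 units over the thresholds (limma, adjusted p = 4.1e-05). With the strictest threshold tried, the median plus 3 scaled MADs of the panel, the margin was 0.10 and the call was lost. Its other probe set, 209784_s_at, read 7.18, 7.42 and 7.09 and was above the threshold in cultures 1 and 2 and just under it in culture 3. The difference between both probe sets, 0.83 ± 0.14 log2 units, had the same sign in every culture.

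*JAG1*, the ligand gene mutated in Alagille syndrome, was read by 4 probe sets that fell on both sides of the threshold. 216268_s_at was the brightest of these 4 and the most even of all 19 probe sets, with 7.17, 7.21 and 7.21 (7.20 ± 0.02, SD, n = 3). It exceeded the threshold in each culture, by 0.10 log2 units on average, and did not pass limma's test (adjusted p = 0.32). 209099_x_at read 7.03, 6.87 and 7.05, under the thresholds throughout. 209097_s_at and 209098_s_at averaged 5.74 ± 0.05 and 4.74 ± 0.04. From the brightest to the dimmest the distance was 2.46 ± 0.07 log2 units (SD, n = 3), with the same order of the 4 probe sets on every array.

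The target gene *HES1* encodes a repressor of the basic helix-loop-helix class that holds back differentiation in many progenitor cells. Probe set 203394_s_at read 8.39, 8.62 and 8.30 (8.44 ± 0.16, SD, n = 3), and 203395_s_at read 7.48, 7.40 and 7.30 (7.39 ± 0.09). Both were above background in every culture, by 1.34 ± 0.10 and 0.30 ± 0.08 log2 units (SE), and both passed limma's test (adjusted p = 7.4e-06 and 0.013). The unmarked probe set 203393_at read 5.30, 5.25 and 5.38, well under the thresholds, so *HES1* lost its call when marked probe sets were left out. The brightest and the dimmest *HES1* probe sets were 3.12 ± 0.22 log2 units apart, a distance reached by 20.3% of genes with several probe sets.

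*HEY1*, a related repressor gene and Notch target, was not above background. Probe set 44783_s_at read 6.66, 6.88 and 7.10, and only in culture 3 did it come up to the level of the threshold without exceeding it. The other probe set, 218839_at, read 6.68, 6.66 and 6.32, with culture 3 the lowest. The cultures were thus ordered differently by the 2 *HEY1* probe sets, and their SDs of 0.22 and 0.20 were the largest among the 19. Of the 6 Notch genes with several probe sets, 5 had probe sets on both sides of the call, against 41.5% of such genes on the array. *HEY1* was the exception with neither above. The count rests on few genes and was not tested. At *NOTCH3* and *JAG1* the called probe set exceeded the threshold by only 0.11 and 0.10 log2 units.

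**Figure D2:**
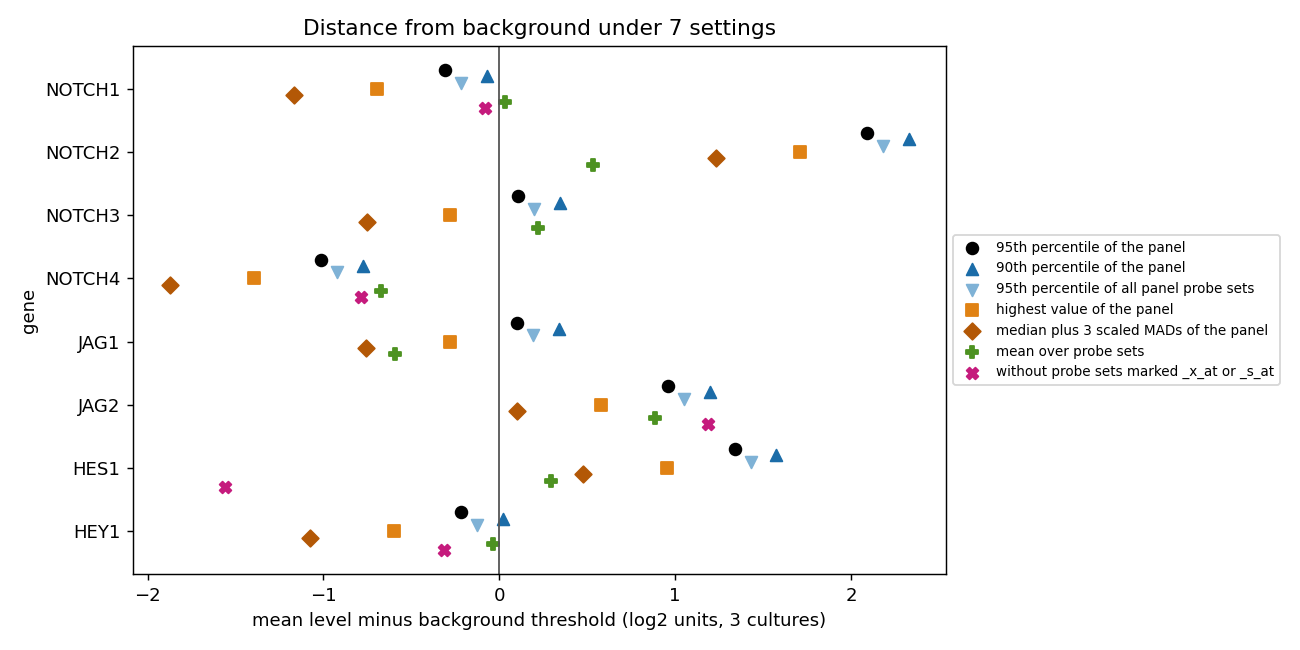
Mean level minus background threshold (horizontal axis, log2 units, 3 cultures) of the 8 Notch genes under 7 settings, with a symbol for each setting and a line at 0, the threshold. *NOTCH2* and *JAG2* stay right of the line, *NOTCH3* and *JAG1* cross it with the stricter thresholds (*JAG1* also with the mean over probe sets), *HEY1* reaches 0.02 with the 90th percentile and *NOTCH1* 0.03 with the mean over probe sets, both without a call, and *HES1* falls to -1.56 without marked probe sets.

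The promoters of *HES1*, *HEYL* and *HEY2* are given here because their windows hold the core sequence that RBPJ is known to bind. This core is TGGGAA, and in mice HES1 protein binds N boxes (CACNAG) before its own gene. Both motifs were searched on both strands. Windows of 250 bases before the annotated transcription start were taken from RefSeq (GRCh38.p14). The capitals mark the RBPJ core on either strand. The *HES1* window is chr3:194135898-194136147 on the plus strand, that of *HEYL* chr1:39639644-39639893 on the minus strand, and that of *HEY2* chr6:125749382-125749631 on the plus strand, each printed 5′ to 3′ on the strand of its gene.
HES1: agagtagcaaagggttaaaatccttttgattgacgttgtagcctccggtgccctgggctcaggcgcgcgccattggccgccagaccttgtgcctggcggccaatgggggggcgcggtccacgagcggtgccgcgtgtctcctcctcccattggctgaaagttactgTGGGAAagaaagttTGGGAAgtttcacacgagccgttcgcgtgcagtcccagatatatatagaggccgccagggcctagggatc
HEYL: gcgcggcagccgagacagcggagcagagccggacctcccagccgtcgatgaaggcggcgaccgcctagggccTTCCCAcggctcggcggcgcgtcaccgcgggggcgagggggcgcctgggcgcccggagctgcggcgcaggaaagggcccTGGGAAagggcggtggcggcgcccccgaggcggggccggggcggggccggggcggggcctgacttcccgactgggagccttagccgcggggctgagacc
HEY2: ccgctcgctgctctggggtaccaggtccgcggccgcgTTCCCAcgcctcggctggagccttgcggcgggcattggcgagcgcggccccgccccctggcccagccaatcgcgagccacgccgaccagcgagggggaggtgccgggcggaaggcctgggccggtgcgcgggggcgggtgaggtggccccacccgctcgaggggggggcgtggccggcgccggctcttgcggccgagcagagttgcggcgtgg

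*HES1* held 2 copies of the core on the same strand, starting 84 and 70 bases before the transcription start. *HEYL* held 2 on opposite strands, starting 178 and 99 bases before it, *HEY2* held 1 at 213 bases, and *HES2* held none. Of 35116 promoter windows of the same length, 20.8% held the core and 2.9% held it at least 2 times. *HES1* also had 3 N boxes, a motif present in 32.0% of windows, and these did not overlap the cores. None of the windows of the receptor and ligand genes held the core, and N boxes were found for *NOTCH3* and *NOTCH4*, with 1 each. *DLL1* and *HEY1* had no window here. *HES1* was above background and *HEYL* and *HEY2* were not, with levels of 5.98 ± 0.21 and 4.47 ± 0.08 (SD, n = 3), so windows with the core belonged to genes on both sides of the threshold.

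**Figure D3:**
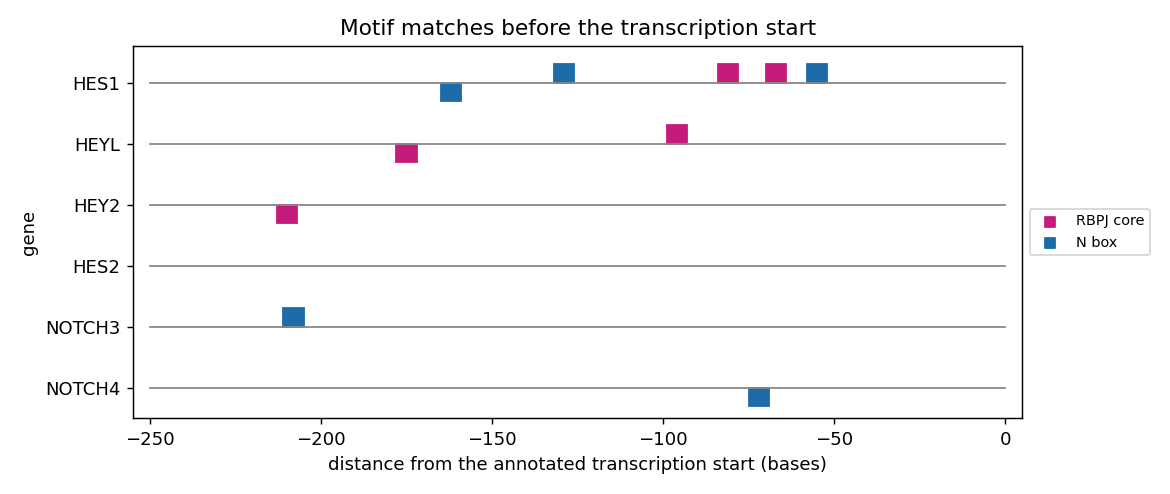
Positions of the RBPJ core (magenta) and the N box (blue) in the 250 bases before the transcription start of 6 genes (horizontal axis, bases from the start), with boxes above the line for the strand of the gene and below it for the other strand. *HES1* has 2 cores side by side between N boxes, and *HES2* has neither motif.

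The wider pathway was read from a list of 68 further genes, of which 50 were measured and 27 were above background (54.0%, against 44.8% of all genes). The counts by role that follow are to be read beside the same 44.8%. They rest on few genes each and were not tested. Genes with more probe sets have more chances to pass, so these counts and the 54.0% are not on equal terms with it. Of the genes for the machinery that cuts the receptor, 7 of 8 were above background. *ADAM10*, which makes the cut outside the membrane, had a level of 9.52 ± 0.05 (SD, n = 3), and *ADAM17* 8.63 ± 0.18. *ADAM10* was above background at 1 of its 3 probe sets and *ADAM17* at 2 of 3. With the mean over probe sets neither was called. The γ-secretase subunit genes *APH1A* and *PSENEN* had levels of 8.97 ± 0.10 and 8.65 ± 0.19, and *FURIN*, whose product matures the receptor, 8.15 ± 0.13. *PSEN2*, of the catalytic subunit, read 7.21, 7.17 and 7.47 and did not pass limma's test (adjusted p = 0.093). *APH1B*, at 7.04 ± 0.10, exceeded the threshold on 1 of the 3 arrays and was the exception.

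In the nucleus, 5 of 8 activator genes and 8 of 9 corepressor genes were above background, where 44.8% of all genes were. *RBPJ* read 9.83, 9.56 and 9.50 (9.63 ± 0.17, SD, n = 3), the coactivator gene *MAML1* 9.73, 9.42 and 9.14, and *SNW1* 9.33, 9.29 and 9.50. The acetyltransferase gene *CREBBP* had a level of 8.58 ± 0.12, while *KAT2A* (7.26 ± 0.13) was above the thresholds without passing limma's test (adjusted p = 0.14). *EP300*, the relative of *CREBBP*, was not above background (6.50 ± 0.16), nor was *MAML3* (5.42 ± 0.03). The corepressor genes *CTBP2* and *HDAC1* had levels of 10.48 ± 0.07 and 10.34 ± 0.19, and those of *HDAC2*, *CTBP1* and *TLE1* were 9.59 ± 0.19, 8.69 ± 0.24 and 8.40 ± 0.15. *SPEN*, whose product binds RBPJ when Notch is off, had a level of 8.75 ± 0.12. *TLE3* at 6.88 ± 0.17 was the corepressor gene not above background. Many corepressor genes had several probe sets. *CTBP2* was above background at 5 of 6 and *CTBP1* at 3 of 3, but *TLE1* and *TLE4* only at 1 of 3, and *SPEN* and *TLE2* at 1 of 2.

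Genes for the receptor's sugars and for its turnover came next. Of 5 sugar transferase genes only *POGLUT1*, of an O-glucosyltransferase, was called, at 7.67 ± 0.23 (SD, n = 3). *POFUT1* exceeded the threshold in 2 of the 3 cultures (6.99, 7.28 and 7.36), and the Fringe genes *LFNG* and *MFNG*, whose products shift the receptor's choice of ligand, lay at 5.20 ± 0.25 and 5.98 ± 0.10. Of 8 genes of endocytosis and turnover, *ITCH* and *DTX4*, both of ubiquitin ligases, were above background at 8.60 ± 0.13 and 8.19 ± 0.09. *CBL* and *DTX2* had levels of 5.61 ± 0.18 and 6.48 ± 0.06, and *AAK1* (7.03 ± 0.17) exceeded the threshold on 1 array.

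**Figure D4:**
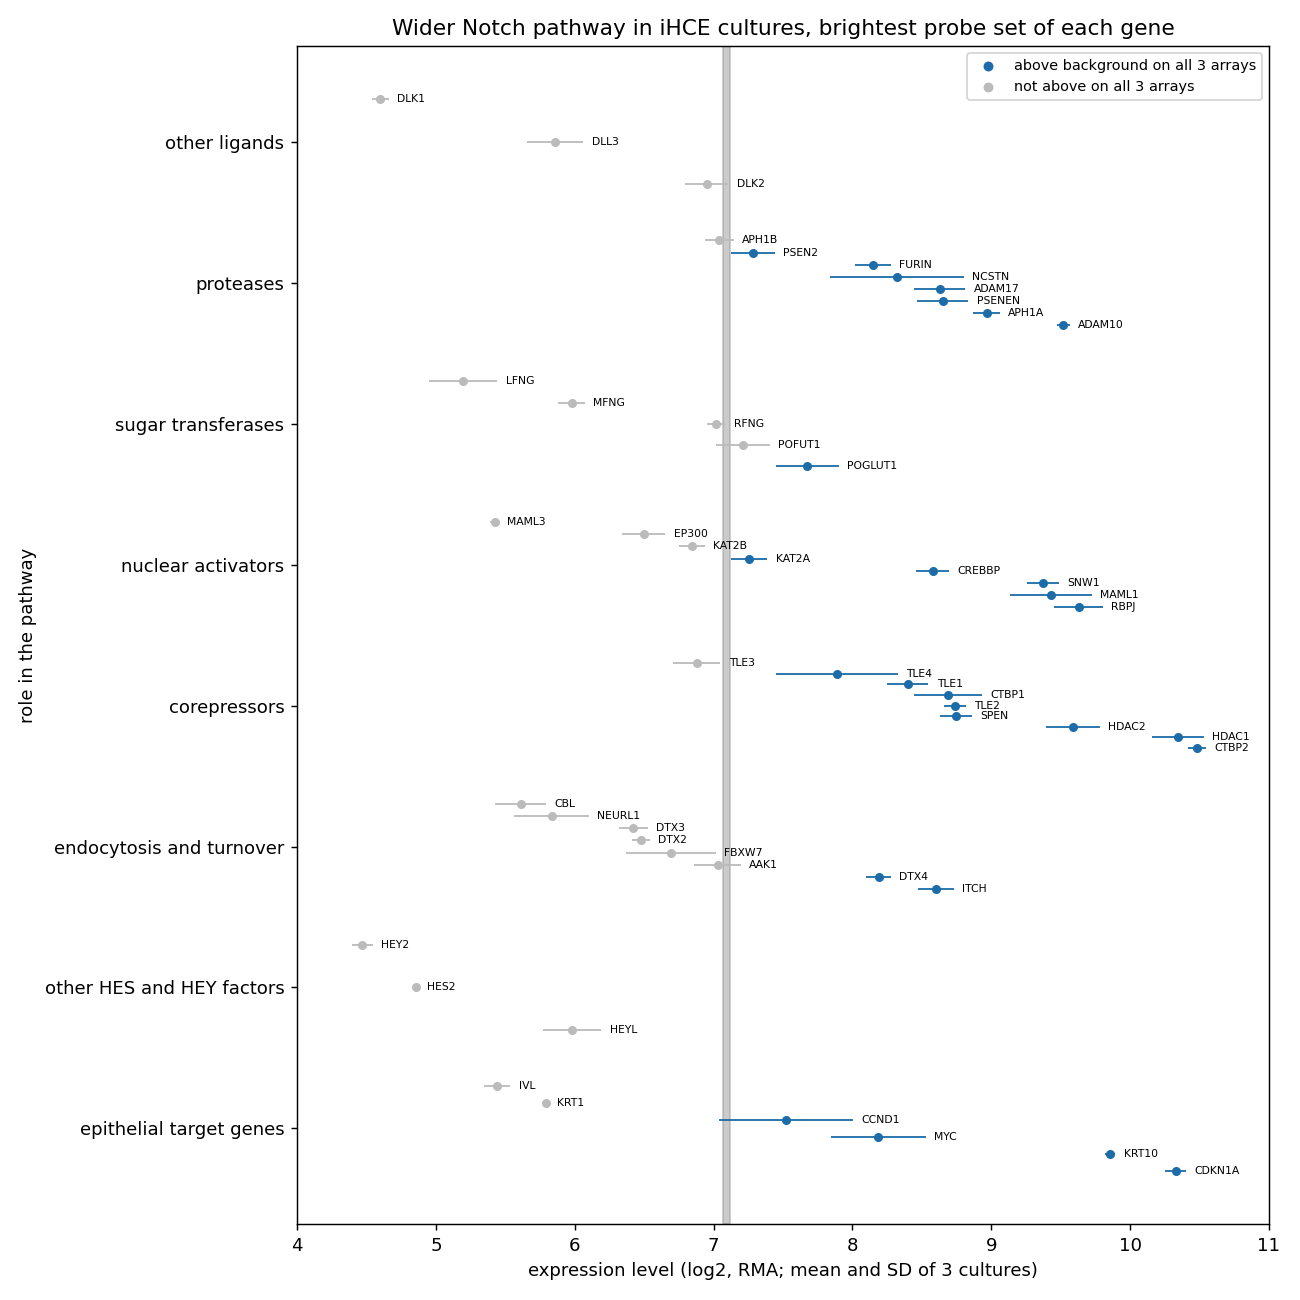
Log2 expression level (horizontal axis, mean and SD of 3 cultures) of the 50 measured genes of the wider Notch pathway at their brightest probe set, by role, with a grey band for the background thresholds. Blue points are above background on all 3 arrays; protease, activator and corepressor genes lie mostly right of the band, and the other ligand, HES and HEY genes lie left of it.

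None of the 3 other measured ligand genes was above background, with *DLL3* at 5.86 ± 0.20, *DLK1* at 4.60 ± 0.06 and *DLK2* at 6.95 ± 0.16 (SD, n = 3). The same held for the 3 other measured HES and HEY genes, with *HES2* at 4.85 ± 0.02. Among all 5 measured genes of these families *HES1* was therefore the one above background. Genes known as targets in epithelial cells were divided: the cell cycle inhibitor gene *CDKN1A* (10.33 ± 0.08), the suprabasal keratin gene *KRT10* (9.86 ± 0.04) and *MYC* (8.19 ± 0.34) were above background, and the epidermal differentiation genes *KRT1* (5.79 ± 0.02) and *IVL* (5.44 ± 0.09) were not. *CCND1*, of cyclin D1, read 8.05, 7.10 and 7.43, with culture 1 apart from the others.

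The cultures lay close together at the Notch genes. The SD over the cultures ran between 0.02 and 0.22 for the 19 probe sets, with a median of 0.11, where the median of all probe sets that name 1 gene was 0.14. At none of the 19 did culture 1 lie 0.5 log2 units or more from both other cultures, which it did at 5.35% of all probe sets (1.6% higher and 3.75% lower). For 19 probe sets a count of 0 is near that share, so this count is no result about the list. Its difference from the mean of cultures 2 and 3 was widest at *HEY1* (44783_s_at), which was lower in culture 1 with a difference of -0.33. Culture 3 was the lowest of the 3 at 11 of the 19 probe sets, against 32.6% of all probe sets, among them the brightest probe sets of *NOTCH2*, *JAG2* and *HES1*. Probe sets of a gene share its transcripts and each culture has 1 array, so these counts were not tested.

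Culture 1 stood apart by 0.5 log2 units or more at 4 of the 50 wider pathway genes, at their brightest probe sets. It did so at 5.07% of all genes, so the count is no result about the pathway, and the genes are given for their values. The γ-secretase gene *NCSTN* read 8.88, 8.02 and 8.07 and *CCND1* was likewise highest in culture 1. The corepressor gene *TLE4* (7.42, 8.30 and 7.94) and *FBXW7*, of a ubiquitin ligase that removes active Notch (6.32, 6.92 and 6.83), were lowest there. All *FBXW7* values lay under the thresholds. Culture 1 is also the culture in which the poly-A controls were lowest. Their median was 5.44, against 6.82 and 6.67 in cultures 2 and 3, all under the thresholds. The part of the low poly-A controls in the differences was not tested.

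**Figure D5:**
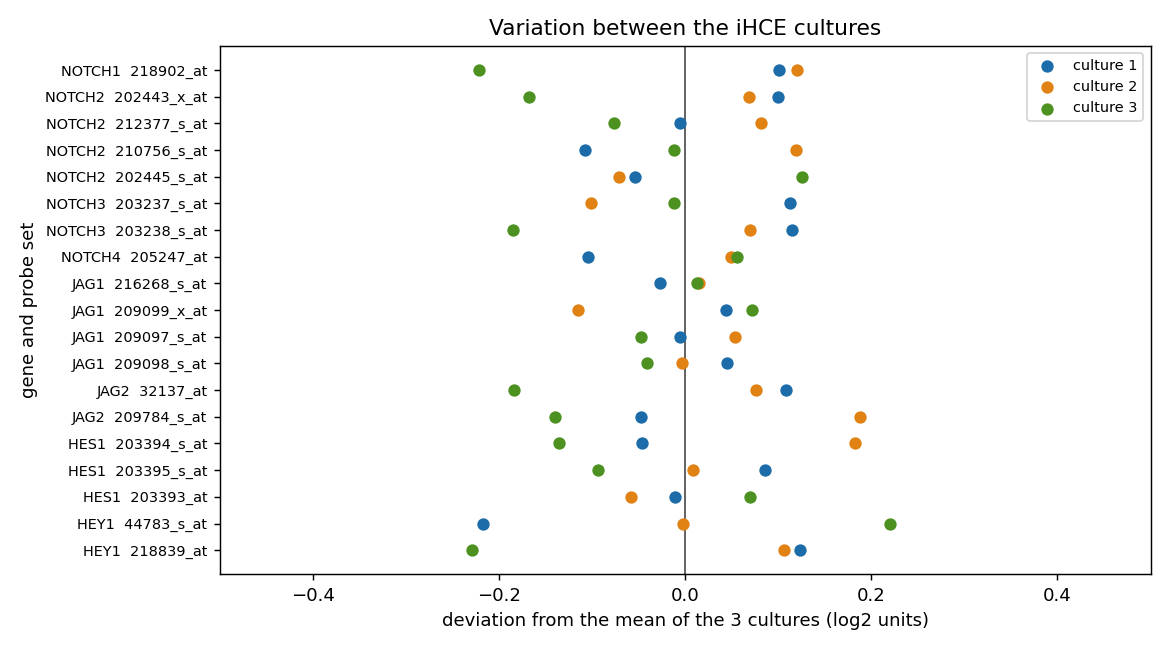
Deviation of each culture from the mean of the 3 iHCE cultures (horizontal axis, log2 units) for the 19 probe sets of the Notch genes, with a colour for each culture. The spread is widest at *HEY1* (SD 0.22 and 0.20), and culture 3 is lowest at 11 probe sets.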

How the data were processed

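Total RNA of 3 iHCE culture batches was hybridized to HG-U133A arrays. The submitters' processing notes name RMA and R 2.8.0, and the authors deposited log2 expression values of 22283 probe sets. RMA equalises the arrays and compresses low values toward background. The methods describe normalization across the whole data set, but whether the deposited values come from a run with the tissue arrays is not known. A genome build was not given in the sources used here.

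Of the probe sets, 19071 named 1 gene through the platform annotation, 1043 named several and 2169 were not listed. A gene was taken at its brightest probe set. Thresholds came from 68 genes of other tissues, of which 60 were measured. Levels minus thresholds were tested with limma 3.58.1 in R 4.3.3 (one-sided, Benjamini-Hochberg over all probe sets or genes). This step was tested on simulated data with a known threshold. Such data cannot check where background is set or the choice of the brightest probe set. Python 3.11.15 was used for the rest. Replicate arrays came from separate culture batches.

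Members and lists were chosen with earlier results of these data known. Genes of each list were named by a rule (the 3 brightest above background, up to 3 others in alphabetical order, and exceptions), except that cell type lists were shown by a few defining markers. *KRT12*, *PAX6*, *PECAM1*, *VWF*, *TEK*, *KERA*, *LUM*, *PSEN2*, *MAML3*, *NCSTN*, *TLE4* and *FBXW7* were named after their values were seen. Alternatives were other thresholds, a mean over probe sets, fewer probe sets, quantile normalization and leaving out each array.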

Additional observations from a re-analysis of the deposited data

How the results depend on the processing

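*NOTCH2* was above background under every alternative that could measure it (10 of 10), *JAG2* under 10 of 11 and *HES1* under 10 of 11, while *NOTCH1*, *NOTCH4* and *HEY1* were above background under none of 11. With the highest value of the panel as threshold 3 Notch genes and 4 probe sets were above background, and *NOTCH3* and *JAG1* both lay at -0.28 log2 units from it. With the median plus 3 scaled MADs the counts were 2 genes, 3 probe sets and 3 probe sets by limma's test, with *NOTCH3* at -0.75 and *JAG1* at -0.76. *JAG2* then exceeded its threshold on fewer than 3 arrays. Without probe sets marked _x_at or _s_at only 5 Notch genes could be measured, at 5 probe sets, and 1 gene and 1 probe set were above background, also by limma's test, with *HES1* at -1.56. The wider pathway count was then 17 of 31 genes. With the 90th percentile 8 probe sets passed limma's test, against 5. By limma's test in place of the call the count was 3 genes. With the mean over probe sets *JAG1* lay at -0.59, and the wider pathway count was 24. *ADAM10*, *ADAM17*, *PSEN2*, *TLE1*, *TLE4* and *CCND1* then lost their call, and *APH1B*, *DLK2* and *RFNG* gained one. Leaving out each replicate gave 5 genes in each case, 7 to 8 probe sets, 4 to 5 probe sets by limma's test, and 27 to 28 wider pathway genes. No paired analysis was possible because the series holds a single group. The share of all genes under the other thresholds and choices of probe sets is not given here. The changed counts therefore do not show whether the Notch list moved differently from the array as a whole. The calls depend on where background is set, and 3 arrays with no control group limit them to signal over that level.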
